A study of Mus musculus with 6 samples.

Results

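The fibrillar collagen genes are described here in corneal keratocytes with and without Ptch1: Col1a1, Col1a2, Col2a1, Col3a1, Col5a1, Col5a2, Col5a3, Col11a1, Col24a1 and Col27a1. These 10 genes were taken by symbol as a family, with no cut on their values, from a table of 17606 genes. Earlier results of these data were known when they were chosen. RNA-seq was run on keratocytes sorted by flow cytometry from mice labelled as aged 10 weeks, 1 month after 3 doses of tamoxifen. The age at tamoxifen that the study gives for this line would make the mice older than that at collection. Whether 10 weeks is the age at dosing or at collection was not settled. The Ptch1-ablated group (3 libraries) carried Prrx1-CreERT and floxed Ptch1, so that tamoxifen switches on the Cre recombinase made from the Prrx1 promoter. The control group (3 libraries) is labelled only as ctrl, at the same age and with the same tamoxifen schedule, and its genotype is not given further in the sources used here. Prrx1-CreERT marks stromal keratocytes and, per the study, also recombines in the corneal endothelium. Loss of Ptch1, the receptor that restrains Smo, is used to switch on Hedgehog signaling, and the comparison asks how fibrillar collagen transcripts differ between keratocytes with and without it.

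Fibrillar collagens form the load-bearing fibrils of the corneal stroma. Their chains are made as procollagens that are hydroxylated, folded into a triple helix, trimmed of their propeptides and cross-linked outside the cell. Type I, built of the chains from Col1a1 and Col1a2, makes up most of the fibril, and type V, from Col5a1, Col5a2 and Col5a3, starts the fibril and limits its width, which keeps corneal fibrils thin. Type III, from Col3a1, is plentiful in skin, vessels and healing wounds and scarce in the normal corneal stroma. Types II and XI are best known from cartilage, and types XXIV and XXVII are less abundant fibrillar collagens described in developing bone and cartilage.

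Library totals ran from 20258439 to 24788063 expected counts, so 3 counts, the limit that a count of 0 allows, came to 0.121 to 0.148 CPM (counts scaled to a common library total). That limit covers counting error only. Ptch1 itself went from 9.84 ± 5.60 CPM to 219 ± 32.8 CPM with ablation (SD, n = 3 each), a gene total that does not resolve the deleted exons. The Hedgehog target Gli1 was higher by 7.15 ± 0.54 on the log2 scale (SE, adjusted p = 5.35e-06 in edgeR). All 5 markers of keratocytes on the list (Tkt, Kera, Aldh1a1, Cd34 and Aldh3a1) were present in both groups, and their summed level ran from 49904 to 51998 TPM in controls and from 30054 to 31947 TPM in ablated libraries. TPM is scaled by transcript length and to a common sum, so it is the scale used here to compare levels between genes. All 5 markers passed the test as lower. In bulk RNA of this kind, fewer cells of a type and less RNA per cell cannot be told apart. Control replicate 1 and ablated replicate 2 had stood apart from the other libraries in earlier work on these data, and the count of fibrillar collagens called without both is given below. Among the collagen-related and marker lists, leaving out both changed the number that passed from 3 to 2 for propeptide processing, from 2 to 1 for receptors, from 3 to 4 for degradation, from 6 to 4 for regulators, from 4 to 5 for the other collagens, from 2 to 1 for osteoblast markers and from 0 to 1 for corneal endothelial markers.

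Sequence just upstream of the start of transcription is shown for 4 of the genes, because 2 of them were higher (Col3a1, Col24a1) and 2 lower (Col1a2, Col5a1) in ablated cells. RefSeq windows (mouse build GRCm38.p6, which is not the build of the count table) were matched for 7 of the 10 genes, with none for Col1a1, Col2a1 and Col5a2. Each run below is the 250 bases before the annotated start, 5′ to 3′ on the strand of the gene. Capitals mark exact matches, on either strand, to the NF-Y motif CCAAT, the Sp1 motif GGGCGG or the core promoter motif TATAAA, and these matches do not overlap in the windows shown.
Col3a1, chr1:45311288-45311537, plus strand: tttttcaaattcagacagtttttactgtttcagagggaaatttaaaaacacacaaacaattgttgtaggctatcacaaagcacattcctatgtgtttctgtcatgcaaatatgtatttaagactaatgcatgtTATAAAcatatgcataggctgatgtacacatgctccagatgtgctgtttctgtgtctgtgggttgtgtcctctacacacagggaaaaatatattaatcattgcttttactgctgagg
Col24a1, chr3:145292222-145292471, plus strand: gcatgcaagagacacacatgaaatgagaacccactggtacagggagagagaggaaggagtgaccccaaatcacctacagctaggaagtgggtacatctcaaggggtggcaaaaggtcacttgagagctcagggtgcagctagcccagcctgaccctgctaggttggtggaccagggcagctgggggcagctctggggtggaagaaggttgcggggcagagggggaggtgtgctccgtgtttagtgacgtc
Col1a2, chr6:4505368-4505617, plus strand: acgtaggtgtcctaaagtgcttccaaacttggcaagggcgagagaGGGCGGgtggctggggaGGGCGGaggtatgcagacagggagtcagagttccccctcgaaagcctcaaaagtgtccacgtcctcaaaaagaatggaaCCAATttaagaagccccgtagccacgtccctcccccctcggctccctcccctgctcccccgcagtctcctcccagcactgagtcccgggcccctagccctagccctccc
Col5a1, chr2:27886175-27886424, plus strand: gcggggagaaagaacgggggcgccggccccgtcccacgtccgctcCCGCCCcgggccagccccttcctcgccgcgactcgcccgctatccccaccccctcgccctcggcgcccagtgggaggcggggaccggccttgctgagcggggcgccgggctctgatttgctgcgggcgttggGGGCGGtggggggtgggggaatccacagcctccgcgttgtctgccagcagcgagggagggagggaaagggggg

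The Col3a1 window held 35.2% G and C, below the median of 52.4% over all 32851 windows, while the Col5a1 window held 76.4%, that of Col1a2 62.0% and that of Col24a1 58.0%. Col3a1 alone among the 7 windows had a TATAAA match, which 12.4% of all windows have. That match lay near the middle of the window and not next to the annotated start. Col1a2 and Col5a1 had 2 GGGCGG matches each (32.7% of all windows have one), and Col1a2 also had a CCAAT match (33.8%). Col11a1 and Col5a3 did not pass the test, though both read lower (log2 fold change -0.47 and -0.45). Their windows likewise held 2 GGGCGG matches and 1 CCAAT match each, and that of Col27a1 held 1 GGGCGG match. These motifs were therefore not limited to the windows of genes that passed as lower. The Gli motif GACCACCCA (0.225% of all windows), the Smad motif GTCTAGAC (0.167%) and the AP-1 motif TGACTCA (4.46%) were in none of the 7 windows. A match is only a description of letters, and a missing match says only that those letters are not in this window.

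Across the family, type III and type XXIV transcripts rose, the main chains of types I and V fell, and the remaining chains did not pass the test. A gene was called when it changed at least 2-fold and its edgeR adjusted p did not exceed 0.05. Of the 10 genes, 9 had enough counts to be tested and 5 were called, against a background of 5.49% of the 13888 genes tested. Col3a1 and Col24a1 were called as higher (background 3.36%), and Col1a1, Col5a1 and Col5a2 as lower (background 2.13%). Without the fold minimum 6 passed (background 8.48%), Col1a2 being the sixth. The CPM values of the groups did not overlap for 7 of the 9, against 27.4% of all genes tested. The median log2 fold change of the 9 genes was -0.47, and that of all genes tested 0.0046. Without control replicate 1, and without both control replicate 1 and ablated replicate 2, 6 of the 9 were called, and without ablated replicate 3 the number was 4.

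**Figure D1:**
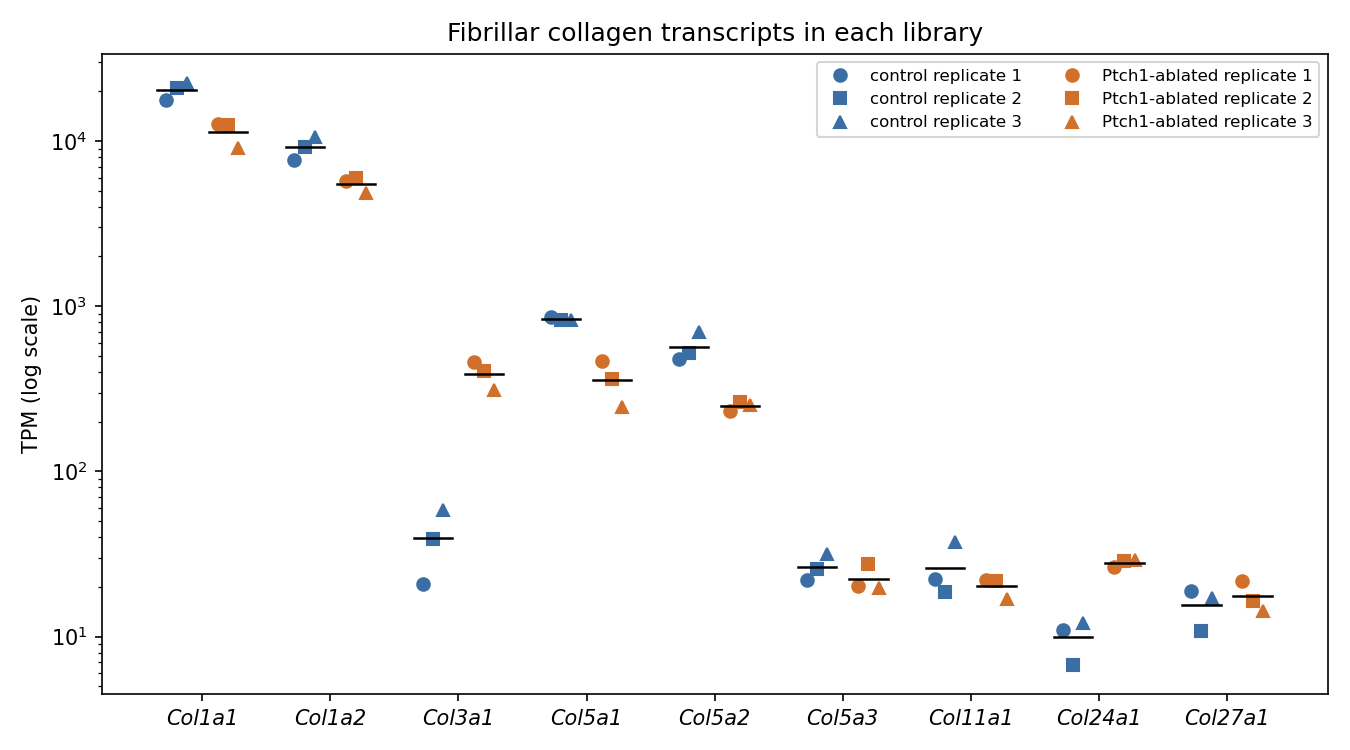
TPM of 9 fibrillar collagen genes in each library, on a log scale, with controls in blue, Ptch1-ablated libraries in orange, a different marker for each replicate and a line at the group mean. Col3a1 lies between 20.8 and 58.4 TPM in controls and between 311 and 457 TPM in ablated libraries, while Col1a1, Col1a2, Col5a1 and Col5a2 lie lower in every ablated library than in any control. Col2a1 is left out because it was at 0 in 5 of the 6 libraries.

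Type I dominated in both groups and its transcripts were lower after Ptch1 ablation. Col1a1 (Entrez 12842), the more abundant of its chains, measured 17805, 21013 and 22473 TPM in control replicates 1 to 3 and 12589.8, 12412.5 and 9024 TPM in ablated replicates 1 to 3. Every ablated library lay below every control, and the lowest was ablated replicate 3. The log2 fold change was -1.06 ± 0.11 (SE, edgeR adjusted p = 6.86e-05). Col1a1 ranked between 3 and 4 among all genes by TPM in the controls and between 5 and 7 in the ablated libraries, and its fall in mean TPM was the 3rd largest of all genes. Its fold change lies close to the limit of 2: without ablated replicate 3 the log2 value was -0.95, which passed the adjusted p and not the fold.

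Col1a2 (Entrez 12843), the partner chain, measured 7637, 9186 and 10562 TPM in controls and 5719.5, 5998 and 4858 TPM in ablated libraries. The groups did not overlap here either. Its log2 fold change was -0.94 ± 0.11 (SE, edgeR adjusted p = 0.000125), or 1.91-fold lower, so that it passed the adjusted p and missed the fold minimum. Without control replicate 1 the value was -1.04 and the gene was called.

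Col3a1 (Entrez 12825), the single chain of type III, rose the most of the family. It measured 20.8, 39.0 and 58.4 TPM in controls and 457, 402 and 311 TPM in ablated libraries. The lowest ablated library was thus well above the highest control, although the controls themselves differed widely, with a coefficient of variation of 47.7% against 18.9% in the ablated group. The values rest on 1230, 2002 and 3480 expected counts in controls and on 25032, 20702 and 18608 in ablated libraries. The log2 fold change was 3.10 ± 0.30 (SE, 95% interval 2.45 to 3.75, edgeR adjusted p = 3.53e-05), an 8.58-fold rise. Of all genes tested, 1.33% had a higher log2 fold change. By TPM its rank moved from 5433, 3586 and 2533 in the controls to 265, 316 and 429 in the ablated libraries. The log2 fold change was 2.80 without control replicate 1, the library with the lowest value, and 3.47 without control replicate 3, the one with the highest.

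Some markers of other cell types also moved between the groups. Of 6 mural cell markers 3 passed as higher (Acta2, Notch3 and Rgs5). The study counts Acta2 as a fibroblast marker. The summed level of all 6 ran from 450 to 524 TPM in controls and from 859 to 937 TPM in ablated libraries. Of 5 vascular endothelial markers 3 passed as higher (Pecam1, Cdh5 and Emcn), and all 5 summed to 247 to 331 TPM in controls and 357 to 399 TPM in ablated libraries. Kdr, the most abundant marker of that list, measured 195 ± 34.7 TPM in controls (SD, n = 3) and 171 ± 11.3 TPM with ablation. Its log2 change was -0.40 ± 0.14 (SE, adjusted p = 0.112 in edgeR), and in DESeq2 1 gene of the list passed as lower and 4 as higher. The other 3 mural markers, Pdgfrb, Cspg4 and Myh11, did not pass. Of 6 corneal epithelial markers tested, Krt5, Krt14 and Krt15 passed as lower and Krt12 as higher, with sums of 50.8 to 89.5 TPM in controls and 3.71 to 8.77 TPM in ablated libraries. That count of 4 became 2 when control replicate 2, control replicate 3, ablated replicate 2 or ablated replicate 3 was dropped. Among 6 leukocyte and 3 melanocyte markers tested, 0 passed in edgeR, DESeq2 or limma, and 0 had an unadjusted edgeR p under 0.05. Among 4 corneal endothelial markers 0 passed in edgeR (1 at an unadjusted p under 0.05), but this count was 1 in 10 of 16 alternatives, among them DESeq2, limma, library totals only and leaving out control replicate 1, control replicate 2 or ablated replicate 1. The marker nearest to passing was Slc4a11, a transporter of the corneal endothelium (log2 change 2.12 ± 0.61, SE, adjusted p = 0.0541 in edgeR). It measured 0.70, 6.08 and 3.13 TPM in controls and 17.1, 12.7 and 19.9 TPM in ablated libraries. Of the 4 tested, 2 read higher and 2 lower. Col8a2, the most abundant, measured 340 ± 27.6 TPM in controls (SD, n = 3) and 303 ± 92.2 TPM with ablation (log2 change -0.38). The whole list summed to 386 to 442 TPM in controls and to 304 to 506 TPM in ablated libraries, so the sums overlapped. No listed marker in the table was at 0 in all 6 libraries, and Krt12 was at 0 in all controls. The part of these cells in the changes of Col3a1 and of the other fibrillar collagens was not tested.

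Type V fell in its abundant chains. Col5a1 (Entrez 12831) measured 861, 824 and 821 TPM in controls, a coefficient of variation of 2.64%, and 465, 365 and 245 TPM in ablated libraries, where it was 30.7%. The groups did not overlap, and the log2 fold change was -1.44 ± 0.18 (SE, edgeR adjusted p = 0.000254). Col5a2 (Entrez 12832), which joins Col5a1 in the usual type V molecule, measured 476, 521 and 696 TPM in controls and 231, 262 and 252 TPM in ablated libraries. Here the ablated libraries lay close together and the controls were spread, the reverse of Col5a1. The log2 fold change of Col5a2 was -1.39 ± 0.14 (SE, edgeR adjusted p = 4.45e-05).

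Col5a3 (Entrez 53867), a rarer type V chain, measured 21.8, 25.5 and 31.7 TPM in controls and 20.2, 27.3 and 19.7 TPM in ablated libraries. The groups overlapped. Its log2 change was -0.45 ± 0.19 (SE, 95% interval -0.87 to -0.03, edgeR adjusted p = 0.205). It did not pass over all genes, and the interval includes falls of up to 0.87 on the log2 scale.

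Col3a1 and Col5a2 are neighbours on chromosome 1 with no other protein-coding gene between them, lie on opposite strands and run toward each other. Their changes were opposite in direction. Strandedness of the libraries is not given in the sources used here, so reads of overlapping transcripts, if any, could not be assigned by strand.

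Col24a1 (Entrez 71355), the type XXIV chain, was the other gene of the family that rose. It measured 10.9, 6.72 and 12.2 TPM in controls and 26.5, 28.8 and 28.9 TPM in ablated libraries. Each ablated library exceeded the highest control, and the ablated values varied little (coefficient of variation 4.89%, against 28.7% in controls). The log2 fold change was 1.42 ± 0.21 (SE, edgeR adjusted p = 0.0011), a 2.67-fold rise, on 428 to 840 expected counts in controls and 1812 to 2061 in ablated libraries. Per library its rank by TPM ran from 7494 to 9106 in controls and from 4828 to 5227 in ablated libraries.

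Col27a1 (Entrez 373864), the related type XXVII chain, measured 18.8, 10.8 and 17.1 TPM in controls and 21.8, 16.5 and 14.4 TPM in ablated libraries. Both groups covered much the same range. Its log2 change, 0.011 ± 0.25 (SE, adjusted p = 0.990 in edgeR), had a 95% interval of -0.53 to 0.55, which leaves room for a change of that size in either direction.

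Col11a1 (Entrez 12814), a type XI chain, measured 22.2, 18.7 and 37.2 TPM in controls and 22.0, 21.6 and 16.9 TPM in ablated libraries. Control replicate 3 stood highest, and the groups overlapped in TPM. The log2 fold change was -0.47 ± 0.22 (SE, 95% interval -0.94 to 0.01, edgeR adjusted p = 0.254). Col2a1 (Entrez 12824), the type II chain, had 1 expected count in ablated replicate 2 and 0 in the other 5 libraries, too few to be tested. Type II transcripts were therefore not detectable at this depth beyond that count. The cartilage markers on the list were also scarce, at 11.2 to 14.7 TPM summed in controls and 21.7 to 39.3 TPM in ablated libraries. Col9a1 took most of that sum.

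**Figure D2:**
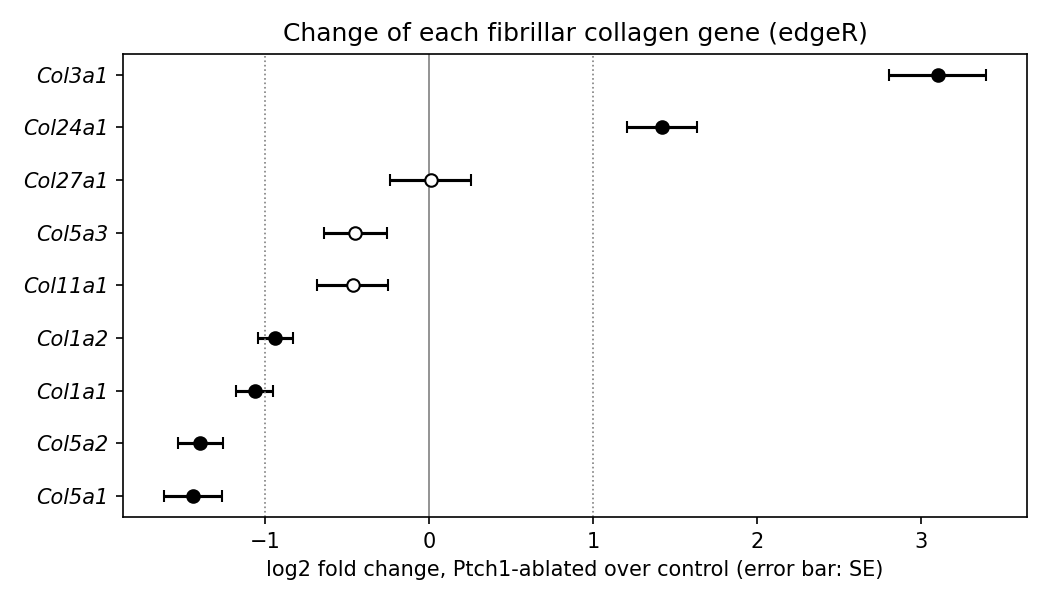
Log2 fold change of each tested fibrillar collagen gene, Ptch1-ablated over control, from edgeR, with bars of 1 SE. Filled points passed the adjusted p of 0.05, open points did not, and dotted lines mark a fold change of 2. Col3a1 lies farthest right at 3.10, Col24a1 next at 1.42, and Col5a1 farthest left at -1.44.

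The order of the levels changed in the middle of the family. In controls the mean TPM ran from Col1a1 (20430.1 ± 2388, SD, n = 3) through Col1a2 (9128 ± 1463), Col5a1 (835 ± 22.1), Col5a2 (565 ± 116), Col3a1 (39.4 ± 18.8), Col5a3 (26.3 ± 4.99), Col11a1 (26.0 ± 9.85) and Col27a1 (15.6 ± 4.23) to Col24a1 (9.93 ± 2.85). From Col3a1 down to Col24a1 each gene overlapped the next. In ablated libraries Col3a1 (390 ± 73.6) stood after Col1a1 (11342 ± 2009.7) and Col1a2 (5525 ± 595), before Col5a1 (358 ± 110) and Col5a2 (248 ± 15.6). The ranges of Col3a1 and Col5a1, and of Col5a1 and Col5a2, overlapped there. Col24a1 (28.0 ± 1.37) came before Col5a3 (22.4 ± 4.26), Col11a1 (20.1 ± 2.82) and Col27a1 (17.5 ± 3.81), and each of these overlapped the next. Col2a1 was last in both groups.

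The balance between chains was then compared within each library, as ratios of TPM, which cancel the scaling of the library. For 3 libraries against 3 the exact permutation test cannot go below p = 0.1, so no ratio could pass a threshold of 0.05, and 11 ratios were computed. Because the main chains fell, most genes were higher relative to them: of all genes tested, 63.2% had a TPM ratio to type I that was higher in every ablated library than in any control, and 1.6% one that was lower in every ablated library. For ratios to type V 77% were higher in this way, and for ratios to Col5a1 76.6%. Per 100 type I transcripts (Col1a1 plus Col1a2) there were 0.0818, 0.129 and 0.177 of type III in controls and 2.49, 2.19 and 2.24 in ablated libraries. The difference was 4.23 ± 0.33 on the log2 scale (SE, exact permutation p = 0.1, adjusted 0.157), or 18.7-fold. The 3 ablated libraries were far more alike in Col3a1 per Col1a1 (coefficient of variation 5.61%) than in Col3a1 TPM itself (18.9%). In controls the ratio still varied by 38.2%, against 47.7% for Col3a1 TPM.

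Type V followed type I more closely. Per 100 type I transcripts there were 5.34, 4.54 and 4.69 of type V in controls and 3.91, 3.55 and 3.72 in ablated libraries. No ablated library reached the lowest control (1.6% of all genes were lower relative to type I in this way), and the difference was -0.38 ± 0.08 on the log2 scale (SE, exact permutation p = 0.1, adjusted 0.157). Taken singly, Col5a1 per Col1a1 differed by -0.41 ± 0.18 (exact permutation p = 0.2) and Col5a2 per Col1a1 by -0.31 ± 0.20 (exact permutation p = 0.3), with groups that overlapped in both.

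Against type V, type III stood at 1.53, 2.84 and 3.77 per 100 in controls and at 63.8, 61.6 and 60.2 per 100 in ablated libraries. This was the widest of the 11 differences, at 4.60 ± 0.38 on the log2 scale (SE, exact permutation p = 0.1, adjusted 0.157). The ablated libraries differed little from each other, with a coefficient of variation of 2.95%, whereas the controls varied by 41.4%.

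The partners within a type kept ratios whose groups overlapped. Col1a1 per Col1a2 was 2.33, 2.29 and 2.13 in controls and 2.2, 2.07 and 1.86 in ablated libraries, a difference of -0.14 ± 0.08 on the log2 scale (SE, exact permutation p = 0.2, adjusted 0.244). Col5a1 per Col5a2 was 1.81, 1.58 and 1.18 in controls and 2.01, 1.39 and 0.972 in ablated libraries, a difference of -0.10 ± 0.35 (SE, exact permutation p = 0.8). The spread of that ratio within each group was wide. The sign of its difference turned when control replicate 1 (0.033) or ablated replicate 3 (0.16) was left out.

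The ratios of the minor chains to the main ones are given as values, since their denominators fell and most genes were higher relative to them. Col5a3 per 100 Col5a1 was 2.54, 3.09 and 3.86 in controls and 4.34, 7.49 and 8.05 in ablated libraries (difference 1.04 ± 0.33 on the log2 scale, SE, exact permutation p = 0.1, adjusted 0.157). Col11a1 per 100 Col5a1 was 2.58, 2.27 and 4.53 in controls and 4.73, 5.92 and 6.89 in ablated libraries, a difference of 0.95 ± 0.35 (SE, same p). For both, the groups did not overlap, as for 76.6% of all genes relative to Col5a1, and neither numerator passed the test by itself. Col24a1 plus Col27a1 per 100 type I transcripts was 0.117, 0.0579 and 0.0887 in controls and 0.263, 0.246 and 0.312 in ablated libraries, 3.23-fold higher by the mean of the log2 ratios.

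**Figure D3:**
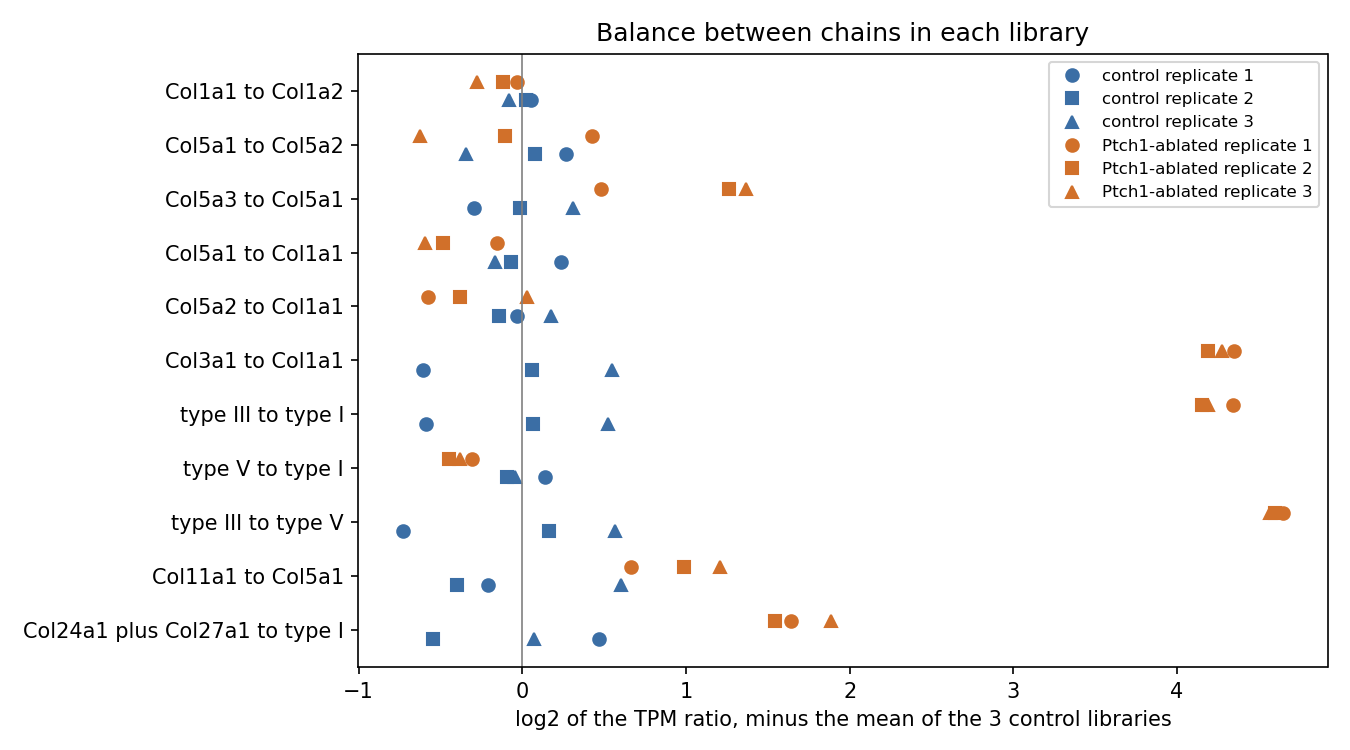
Each TPM ratio in each library, as log2 and centred on the mean of the 3 controls, with controls in blue and Ptch1-ablated libraries in orange. The type III ratios of the ablated libraries lie more than 4 log2 units above the control mean, the type V to type I ratio lies below all controls, and the ratios of Col1a1 to Col1a2 and of Col5a1 to Col5a2 overlap.

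A test with a spread estimate shared across genes was added after seeing the data. In it limma compared each gene's TPM relative to type I TPM. Because type I itself fell, 59.3% of all genes tested passed on this scale, 58.3% as higher and 1.05% as lower, so a pass as higher says little. Col3a1 passed at 4.22 ± 0.26 on the log2 scale (SE, limma adjusted p = 2.17e-06), Col24a1 at 2.34 ± 0.33 (limma adjusted p = 0.000384) and Col27a1 at 1.00 ± 0.33 (limma adjusted p = 0.0218). Col5a3 (0.58), Col11a1 (0.50), Col5a1 (-0.46, limma adjusted p = 0.0822) and Col5a2 (-0.35, limma adjusted p = 0.143) did not pass.

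As a share of the summed TPM of the 10 genes, type I held 95.1 ± 0.386% in controls (SD, n = 3) and 94.0 ± 0.305% with ablation. Type III moved from 0.123 ± 0.0454% to 2.17 ± 0.148%, and type V from 4.62 ± 0.386% to 3.50 ± 0.158%. The gain of type III, 2.04 percentage points, stood beside differences of -1.13 points for type I and -1.12 points for type V. Col24a1 moved from 0.0323 ± 0.00998% to 0.159 ± 0.032%. The groups did not overlap in any of these shares, where 62.7% of all genes were higher and 1.63% lower relative to the same sum without overlap (exact permutation p = 0.1, the smallest possible, adjusted 0.117 over 7 shares). The summed TPM itself was 31075 ± 3949 in controls (SD, n = 3) and 17952 ± 2756 after ablation, 1.74-fold lower (exact permutation p = 0.1). It made up 2.69 to 3.47% of all TPM in controls and 1.48 to 1.96% in ablated libraries.

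**Figure D4:**
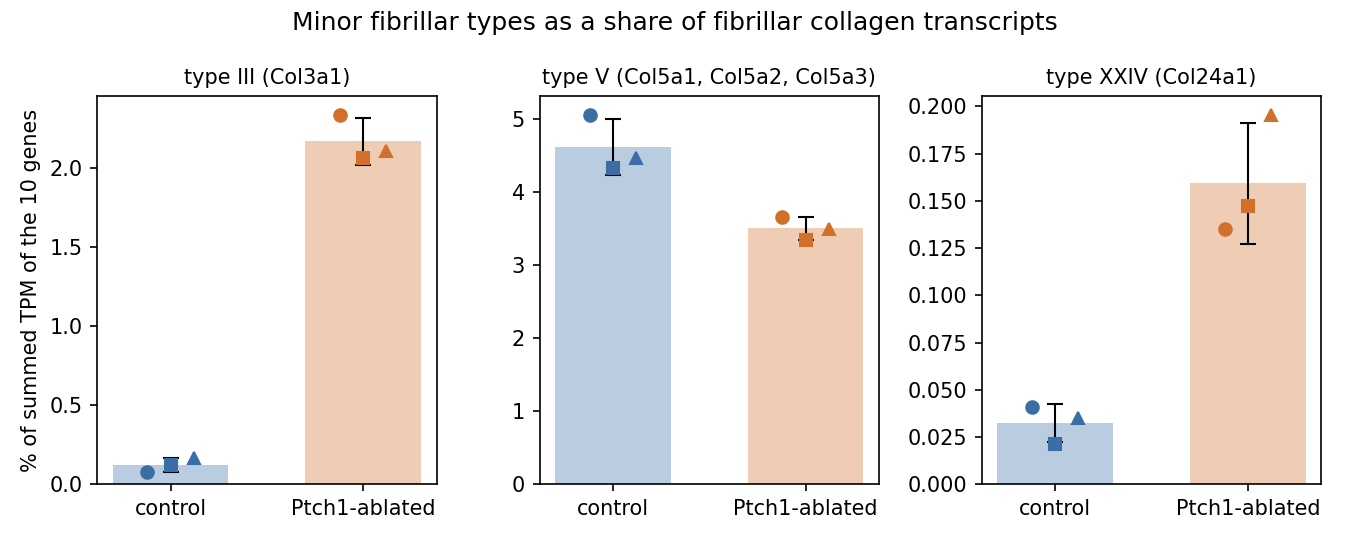
Share of types III, V and XXIV in the summed TPM of the 10 fibrillar collagen genes, with bars at the group mean, error bars of 1 SD and a point for each library, each panel on its own scale from 0. Type III moves from 0.123% to 2.17%, type V from 4.62% to 3.50% and type XXIV from 0.0323% to 0.159%.

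The genes whose pattern over the 6 libraries was most like Col1a1 and Col3a1 were found among 8415 genes with a mean of at least 10 TPM, by the root mean square distance between centred log2(TPM + 1) values. For Col1a1 the nearest were Shox2 (distance 0.097), Itih5 (0.102), Cracr2b (0.105), Col1a2 (0.108) and Slc29a1 (0.117), so the partner chain was the fourth. For Col3a1 they were Igfbp3 (0.149), Rasd1 (0.202), Heyl (0.233), D630003M21Rik (0.236) and Adcy7 (0.300). No other fibrillar collagen was among them. The 6 libraries share their groups, so these distances are a description.

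The genes that modify, fold and secrete procollagen were compared next. Of 20 tested, 4 passed as lower and 0 as higher in edgeR (3.8% and 4.68% of all genes tested). As higher, 1 had an unadjusted edgeR p under 0.05, 0 passed in DESeq2 and 1 in limma. The list had a median log2 fold change of -0.33. Plod1, a lysyl hydroxylase and the most abundant of them, fell from 1512 ± 101 to 1056 ± 88.1 TPM (SD, n = 3 each, log2 fold change -0.73, edgeR adjusted p = 0.00106). Colgalt2, a collagen galactosyltransferase, fell by 1.12 on the log2 scale, P3h4, a partner of lysyl hydroxylase, by 1.06, and Ppib, a prolyl isomerase of the collagen-modifying complex, by 0.70.

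Among genes listed for propeptide processing, 3 of 7 passed as lower and 0 as higher in edgeR (0 at an unadjusted p under 0.05, 0 in DESeq2 and 1 in limma), with a median of -0.41. Tll2, a tolloid-like proteinase, fell from 25.2 ± 3.69 to 1.71 ± 0.609 TPM (SD, n = 3 each, log2 fold change -4.06, edgeR adjusted p = 5.73e-06). Its relatives Bmp1 (-0.44 ± 0.22, SE, edgeR adjusted p = 0.297) and Tll1 (0.50 ± 1.38, SE, edgeR adjusted p = 0.899) did not pass. Whether Tll2 trims fibrillar procollagens in these cells was not tested. Adamts2, which removes N-terminal propeptides of fibrillar collagens, fell by 1.33 on the log2 scale. Pcolce, which enhances C-terminal cleavage and was the most abundant, fell by 0.41. Of 6 cross-linking genes, the transglutaminase Tgm2 rose by 1.04 (450 ± 24.7 to 1072 ± 152 TPM) and the lysyl oxidase Lox fell by 0.80. Loxl1, the most abundant of them, read 0.07 and did not pass.

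Collagens and proteins that coat the fibril moved in both directions. Of 8 FACIT collagens (fibril-associated collagens with interrupted helices), 2 passed as higher and 2 as lower. Col22a1 had at most 2.2 expected counts in any control and 104 to 132 in ablated libraries, Col9a1 rose by 1.02 (edgeR adjusted p = 0.0499), Col20a1 fell by 1.11 and Col14a1 fell by 0.84. Col12a1, the most abundant, read -0.36 (edgeR adjusted p = 0.113). This count of 4 rested on single libraries: it was 2 without control replicate 1, control replicate 2 or ablated replicate 1, and 1 without control replicate 3 or ablated replicate 3.

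Of 15 fibril-binding proteins, 4 passed as higher and 4 as lower. Dpt, or dermatopontin, fell from 905 ± 72.8 to 79.7 ± 18.9 TPM (SD, n = 3 each, log2 fold change -3.70, edgeR adjusted p = 5.29e-07). Keratocan (Kera), a leucine-rich proteoglycan of the cornea, fell by 1.59, and fibronectin (Fn1) fell by 1.23. In the same proteoglycan family, Aspn rose from 5.21 ± 1.89 to 70.6 ± 10.8 TPM (log2 fold change 3.55, edgeR adjusted p = 9.43e-06), Omd rose by 2.08 and Fmod rose by 1.15. Also of that family, Prelp rose from 1397 ± 57.2 to 2420 ± 241 TPM (log2 fold change 0.58, edgeR adjusted p = 0.00241). Bgn fell from 3812 ± 121 to 2779 ± 193 TPM (log2 fold change -0.67, edgeR adjusted p = 0.000648). Decorin (Dcn), the most abundant gene of the list, read -0.32 (edgeR adjusted p = 0.177).

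Receptors and degradation were covered by shorter lists. Of 9 collagen receptors tested, Itga11, which pairs with integrin beta 1 to bind type I collagen, fell by 1.41, and Mrc2, which takes up collagen for degradation, fell by 1.01. As higher, 0 passed in edgeR, DESeq2 and limma, and 2 had an unadjusted edgeR p under 0.05. Without ablated replicate 2, 1 of the 9 passed. Of 10 degradation genes, the inhibitor Timp2 fell by 1.24, the proteinase Fap fell by 1.21 and the collagenase Mmp14 rose by 0.87. Mmp2, the most abundant, read -0.25 (edgeR adjusted p = 0.305). Without ablated replicate 3, 2 of the 10 passed.

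Known regulators of collagen genes moved upward where they passed. Of 26 tested, 6 passed as higher in edgeR, and 0 passed as lower in edgeR, DESeq2 or limma (1 at an unadjusted edgeR p under 0.05). Ccn2, a matricellular target of TGF-beta and YAP signaling, rose from 99.3 ± 18.2 to 497 ± 19.4 TPM (SD, n = 3 each, log2 fold change 2.12, edgeR adjusted p = 4.21e-06). Sp7, the osteoblast transcription factor, read 1.41, 0 and 0.16 TPM in controls and 8.99, 13.2 and 10.2 TPM in ablated libraries (edgeR adjusted p = 0.0196). Fli1, described as a repressor of type I collagen genes, rose by 1.23, Ets1 by 0.93, Tgfb3 by 0.80 and Egr1, the most abundant of the list, by 0.56. The count was 4 without control replicate 2, control replicate 3 or ablated replicate 2. With Dmp1, Sp7 also passed as an osteoblast marker, and the osteoblast list summed to at most 1.42 TPM in controls and to 11.5 to 15.1 TPM in ablated libraries. Neither gene of that pair passed when control replicate 3 or any ablated replicate was left out, and 1 passed without control replicate 1 or 2.

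**Figure D5:**
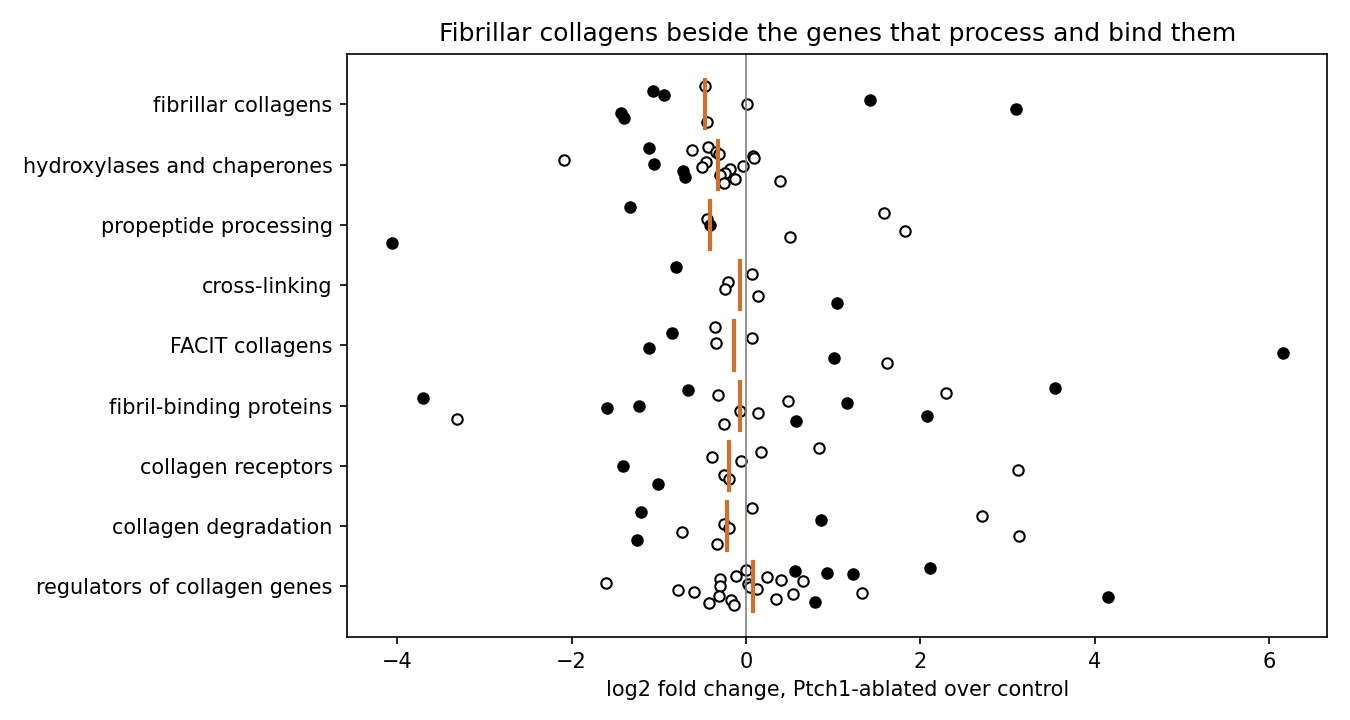
Log2 fold change of each tested gene, Ptch1-ablated over control, in the fibrillar collagens and 8 lists of genes that process, bind or regulate collagens, with filled points for genes that passed the edgeR adjusted p of 0.05, open points for the others and an orange bar at the list median. The medians run from -0.47 for the fibrillar collagens to 0.09 for the regulators, and Col3a1 stands apart to the right of its family.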

How the data were processed

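RNA was measured by bulk RNA-seq in sorted corneal keratocytes, with 3 control and 3 Ptch1-ablated libraries grouped by their titles. The study describes them as biological replicates. The labels name Trizol extraction and a TruSeq kit, whereas the study's methods describe ribosomal RNA depletion and a BGISEQ platform, and this was not settled. Per the submitters' processing notes, reads were aligned with Bowtie2 2.2.5 and quantified with RSEM 1.2.12 on mm9. The annotation and strandedness are not given in the sources used here.

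The authors deposited RSEM expected counts per gene, which are not normalized and of which 18.6% are not whole because RSEM divides reads that match several genes. They also deposited TPM, which divides by effective length and fixes the sum of a library, and FPKM, scaled by length and fragments. FPKM entered only an alternative for the ratios, and the authors' group averages were not used. A shift of composition moves TPM of all genes, since its sum is fixed, and the TMM factors differed between groups.

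Expected counts were rounded. The filterByExpr rule left 13888 of 17606 genes. After TMM scaling, edgeR's quasi-likelihood test (two-sided, without covariates) compared the groups, and p-values were adjusted by Benjamini-Hochberg over all tested genes. Thresholds were those of the study's methods, an adjusted p of 0.05 and a fold of 2. "Passed" denotes the adjusted p alone. Dividing the log2 fold change by the root of the F statistic gave its SE. TPM ratios and shares were compared by two-sided exact permutation tests. The intervals cover the spread between these libraries. The edgeR, limma and DESeq2 fits were tested on simulated data with 200 changed genes. Of these edgeR called 122 (4 false calls), limma 114 (3 false) and DESeq2 138 (18 false). A gene that did not pass may therefore still have changed. Members, gene lists and tests were chosen with earlier results of these data known. Named genes were all 10 members and, in each list, those that passed (at most 6, by absolute log2 fold change) and the most abundant in controls. Some further genes were named to show both directions. Alternatives were DESeq2, RLE and upper quartile scaling, library totals only, no filter on low counts, a minimum mean count of 50, limma on log2(TPM + 1) and log2(TPM + 0.1), ratios of expected counts, the replicate number as a block and leaving out each library. Leaving out 2 libraries together and the level relative to type I were chosen after seeing the data. The result of 1 marker list is not reported here. Promoter windows came from RefSeq. Software was Python 3.11.15 with matplotlib 3.10.9, and R 4.3.3 with DESeq2 1.42.0, limma 3.58.1 and edgeR 4.0.16.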

Additional observations from a re-analysis of the deposited data

How the results depend on the processing

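In each of 16 alternatives the same number of fibrillar collagens, 6, passed the adjusted p, and 2 were called as higher. The number called ran from 4 to 6: it was 4 with library totals only, in both limma fits and without ablated replicate 3, where Col1a1 missed the fold minimum. Log2 fold changes over all alternatives ran from 2.80 to 3.47 for Col3a1 (edgeR, limma or DESeq2 adjusted p at most 0.000517), from 1.25 to 1.59 for Col24a1 (at most 0.00927), from -1.17 to -0.86 for Col1a1, from -1.06 to -0.72 for Col1a2, from -1.69 to -1.25 for Col5a1 and from -1.49 to -1.17 for Col5a2. Scaling by library totals only moved the median of all genes by 0.17 and limma on log2(TPM + 1) by 0.19, so falls were smaller and rises larger there. On library totals Col1a1 read -0.89. Under limma on log2(TPM + 1), 26 genes of the collagen-related lists passed as higher instead of 17. The sign of Col27a1 turned with upper quartile scaling (-0.038), without control replicate 2 (-0.18) and without ablated replicate 1 (-0.09), with a range of -0.18 to 0.23 when 1 library was left out, and the cause was not tested. The log2 ratio of Col5a1 to Col5a2 ran from -0.36 to 0.16 when 1 library was left out. In ratios of expected counts, which are not per length, the share of type I differed by -0.72 points and that of type V by -1.49 points. Depth limits only Col2a1 and the rarest listed genes.

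Libraries with the same replicate number did not deviate together (r = -0.022, -0.063 and 0.039), and pairs with different numbers ran from -0.046 to 0.079. These values show no pairing by number, but with 3 libraries per group they cannot exclude one. With the replicate number as a block, 5 fibrillar collagens were called and 6 passed, and Col3a1 read 3.19. An exact sign-flip permutation test of 3 pairs cannot go below p = 0.25, so no paired test of ratios could pass.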

Other observations

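Among 20 other collagen genes tested, 3 rose, 1 fell and 16 did not pass the edgeR test, with a median log2 fold change of 0.45. Col8a1, a short-chain collagen of basement membranes such as that of the corneal endothelium, rose from 3.57 ± 0.132 to 20.5 ± 3.81 TPM (SD, n = 3 each, log2 fold change 2.31, edgeR adjusted p = 9.8e-05). Col18a1, the source of endostatin, rose from 12.3 ± 1.62 to 45.0 ± 5.15 TPM (log2 fold change 1.63). Col4a1, a basement membrane collagen, rose from 61.5 ± 18.3 to 163 ± 26.5 TPM (log2 fold change 1.19). The partner chains Col4a2 (log2 fold change 0.51, edgeR adjusted p = 0.122) and Col8a2 (-0.38, edgeR adjusted p = 0.286) did not pass. Col6a3, a chain of the beaded-filament collagen VI, fell from 903 ± 66.4 to 364 ± 47.9 TPM (log2 fold change -1.5, edgeR adjusted p = 4.41e-06), whereas its partner Col6a1, the most abundant gene of the list, measured 4642 ± 369 and 4535 ± 437 TPM (log2 fold change -0.24, edgeR adjusted p = 0.172). Of the vascular endothelial and mural markers given above, 3 of 5 and 3 of 6 also passed as higher, while the abundant Kdr and Pdgfrb did not pass. Their part in the changes of Col4a1 and Col18a1 was not tested. Col11a2, the other type XI chain, read at most 1.17 TPM in any library.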
